A study of Mus musculus with 17 samples.

Results

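Collagens and laminins are the chains from which cells build basement membranes and the fibrils between cells, and here they were followed in young cells of the mouse subventricular zone (SVZ), the germinal layer along the lateral ventricles. The chains were found by their names on the array: every probe was taken whose gene name was that of a collagen chain (Col, a number, a, a number) or of a laminin chain (Lama, Lamb or Lamc with a number). That gave 110 probes for 54 genes. A probe was kept when its spot was called well above background by the scanner software, in either channel, on at least 2 of the 17 arrays. Of the 54 genes 53 had such a probe. Cert1 was listed under its old name Col4a3bp and encodes a ceramide transfer protein, so it was set aside. This left 52 chains, 41 of collagens and 11 of laminins, with 95 probes, among 24340 genes measured. Col28a1 was the only gene left below the rule, with 0 arrays well above background in either wall; the chains nearest to the rule on its inner side were Col14a1 and Col6a6, whose kept probes passed on 3 arrays each. Col26a1 and Col6a5 stood on the array under older names and were not matched.

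A collagen molecule is a helix of chains whose sequence repeats glycine at regular steps, while a laminin is a cross of an alpha, a beta and a gamma chain. Collagen IV chains and laminins form the sheets of basement membranes, collagen VI forms beaded filaments beside them, fibrillar collagens form the fibrils of connective tissue and the fibril-associated collagens sit on their surface. In the SVZ, laminins and collagen IV lie in vessel walls and in the branched basement membrane structures called fractones that neural stem cells touch.

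The animals were CD1 mouse pups, electroporated in vivo at postnatal day 1 in progenitors of the dorsal or of the lateral SVZ wall. Cells carrying green fluorescent protein (GFP) were sorted by flow cytometry later: after 8 hours (2 arrays), 1 day (3), 2 days (2), 4 days (3), 7 days (3) or 14 days (4). Each 2-colour array held the dorsal cells in Cy3 and the lateral cells in Cy5, and arrays of the same time are biological replicates by their labels, which do not say how many pups a sort pooled. The dyes were never swapped, so a constant dye effect of a probe stays in every difference between the walls and cancels in changes with time. The RNA was amplified by a global PCR of its cDNA before labelling, and the labels name the RNA polyA in the dorsal and total in the lateral channel. Whether the RNA type truly differed was not settled, and if it did, it cannot be told apart from the wall in any dorsal against lateral value. No gene or treatment besides the GFP electroporation is named, and all groups share strain and age at electroporation.

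Levels below are log2 intensities of a gene's brightest probe, and they rank arrays for that gene, not genes against each other. The scanner called 41.0% to 76.7% of all spots well above background in the dorsal channel and 56.4% to 79.4% in the lateral channel. One array at 1 day (replicate 1) and one at 14 days (replicate 2) stood apart from the others in an earlier look at these data. All 1 day arrays lay on one slide and all 14 days arrays on another, so slide and time cannot be told apart there. The arrays carried the markers of the sorted lineage: the mean level of 10 neuroblast markers lay at 10.12 to 11.22 at 8 hours and at 14.13 to 14.87 at 4 days, and that of 12 astrocyte and radial glia markers lay at 12.86 to 14.45 at 8 hours and 11.21 to 12.30 at 4 days. Of the cells known as main makers of collagens and laminins, 14 endothelial markers averaged 6.78 to 9.44 over all arrays and both walls, 12 mural cell markers 7.99 to 10.35, and 14 fibroblast and meningeal markers 6.62 to 11.12, highest in replicates 1 and 2 at 7 days. Markers of other cells were present as well. The mean of 10 microglia markers was 12.42 to 14.01 at 8 hours and 7.29 to 15.42 over all arrays and both walls. That of 8 choroid plexus markers was 6.45 to 12.17, highest in the dorsal cells of replicate 2 at 7 days. In sorted bulk samples, fewer cells of a type and less RNA per cell cannot be told apart.

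The sequences that carried the chains are of 2 kinds, the letters on the array and the promoters in the genome. A probe is a stretch of 60 letters from the mRNA. Among 41174 probes, 3 held a glycine codon (GG and any base) in each Gly-X-Y step through their whole length, and all 3 belonged to the 85 collagen probes counted by name. They are shown because they print the repeat of the collagen helix, with those codons in capitals.

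Col11a2: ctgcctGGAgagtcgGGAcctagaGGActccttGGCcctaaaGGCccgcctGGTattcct

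Col5a1: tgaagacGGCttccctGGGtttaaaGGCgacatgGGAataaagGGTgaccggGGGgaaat

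Col5a3: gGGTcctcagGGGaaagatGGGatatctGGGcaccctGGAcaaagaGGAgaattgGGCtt

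In the mm9 coordinates of the array files the Col11a2 probe lies at chr17:34189287-34189453 on the plus strand with 6 such codons, the Col5a1 probe at chr2:27842243-27844666 on the plus strand with 6, and the Col5a3 probe at chr9:20590066-20590795 on the minus strand with 7. Each spans more genome than its 60 letters, so it crosses at least 1 intron. Of the laminins, the probes of Lama1 and Lamb1 are shown, since a wall difference and a change with time turn on them and neither chain had a second kept probe; nothing is marked in them.

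Lama1: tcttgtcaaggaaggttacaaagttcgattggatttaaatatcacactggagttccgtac

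Lamb1: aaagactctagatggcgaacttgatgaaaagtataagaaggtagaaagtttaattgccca

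The Lama1 probe lies at chr17:68167016-68167978 and the Lamb1 probe at chr12:32012684-32014030, both on the plus strand of mm9, and both cross an intron as well. Exon and UTR annotation of that build was not used here.

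The promoters of Col4a5 and Col4a6 are shown because these collagen IV chains share 1 region of the X chromosome head to head and both changed with time. RefSeq on GRCm38.p6 sets their starts 1343 bases apart, on opposite strands. Each line gives the 250 bases before the start, 5′ to 3′ on the gene's own strand, and capitals mark the matches, on either strand, of GGGCGG (the GC box), CCAAT and TATAAA, none of which overlap one another.

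Col4a5 promoter: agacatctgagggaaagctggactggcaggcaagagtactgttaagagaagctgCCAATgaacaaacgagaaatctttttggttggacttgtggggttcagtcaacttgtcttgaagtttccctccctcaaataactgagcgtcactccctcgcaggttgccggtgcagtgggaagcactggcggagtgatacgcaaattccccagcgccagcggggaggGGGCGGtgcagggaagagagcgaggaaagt

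Col4a6 promoter: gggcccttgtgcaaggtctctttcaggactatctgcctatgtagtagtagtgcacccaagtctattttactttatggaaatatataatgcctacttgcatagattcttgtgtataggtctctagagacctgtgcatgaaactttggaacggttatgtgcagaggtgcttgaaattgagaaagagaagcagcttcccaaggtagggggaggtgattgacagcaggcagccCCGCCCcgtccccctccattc

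The Col4a5 stretch is chrX:141475169-141475418 on the plus strand, with GGGCGG 30 bases and CCAAT 196 bases before the start. The Col4a6 stretch is chrX:141474077-141474326 on the minus strand, with GGGCGG on its opposite strand (printed as CCGCCC) 21 bases before the start. Of 42 promoters found in RefSeq for 38 of the chains, 23 (54.8%) held GGGCGG, 14 (33.3%) CCAAT and 5 (11.9%) TATAAA. Of all 32851 promoters of that length, 32.7% held GGGCGG, 33.8% CCAAT and 12.4% TATAAA. A match is a description of letters only.

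Among the 52 chains, 19 were well above background in both walls on all 17 arrays. In 5 chains (Col14a1, Col15a1, Col19a1, Col6a6 and Lama1) fewer than 10 of the 34 channels were. By time, 46 to 47 chains were above background in the dorsal cells at 8 hours, 35 to 40 at 4 days and 26 to 43 at 14 days; in the lateral cells the counts were 45 to 46, 40 to 45 and 36 to 47. In the dorsal cells the share of all spots above background fell as well, from 71.7% to 71.8% at 8 hours to 56.9% to 68.4% at 4 days and 41.0% to 62.3% at 14 days. In the lateral cells it was 67.2% to 72.4%, 62.4% to 77.3% and 56.4% to 69.3%, so at 4 days it spread to both sides of the 8 hours share. Of the 52 chains 15 (28.8%) passed a test in at least 1 of the 11 comparisons made, as did 11.5% of all genes. These 15 and Lama2, one of the chains with the largest wall difference, are given with their values.

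**Figure D1:**
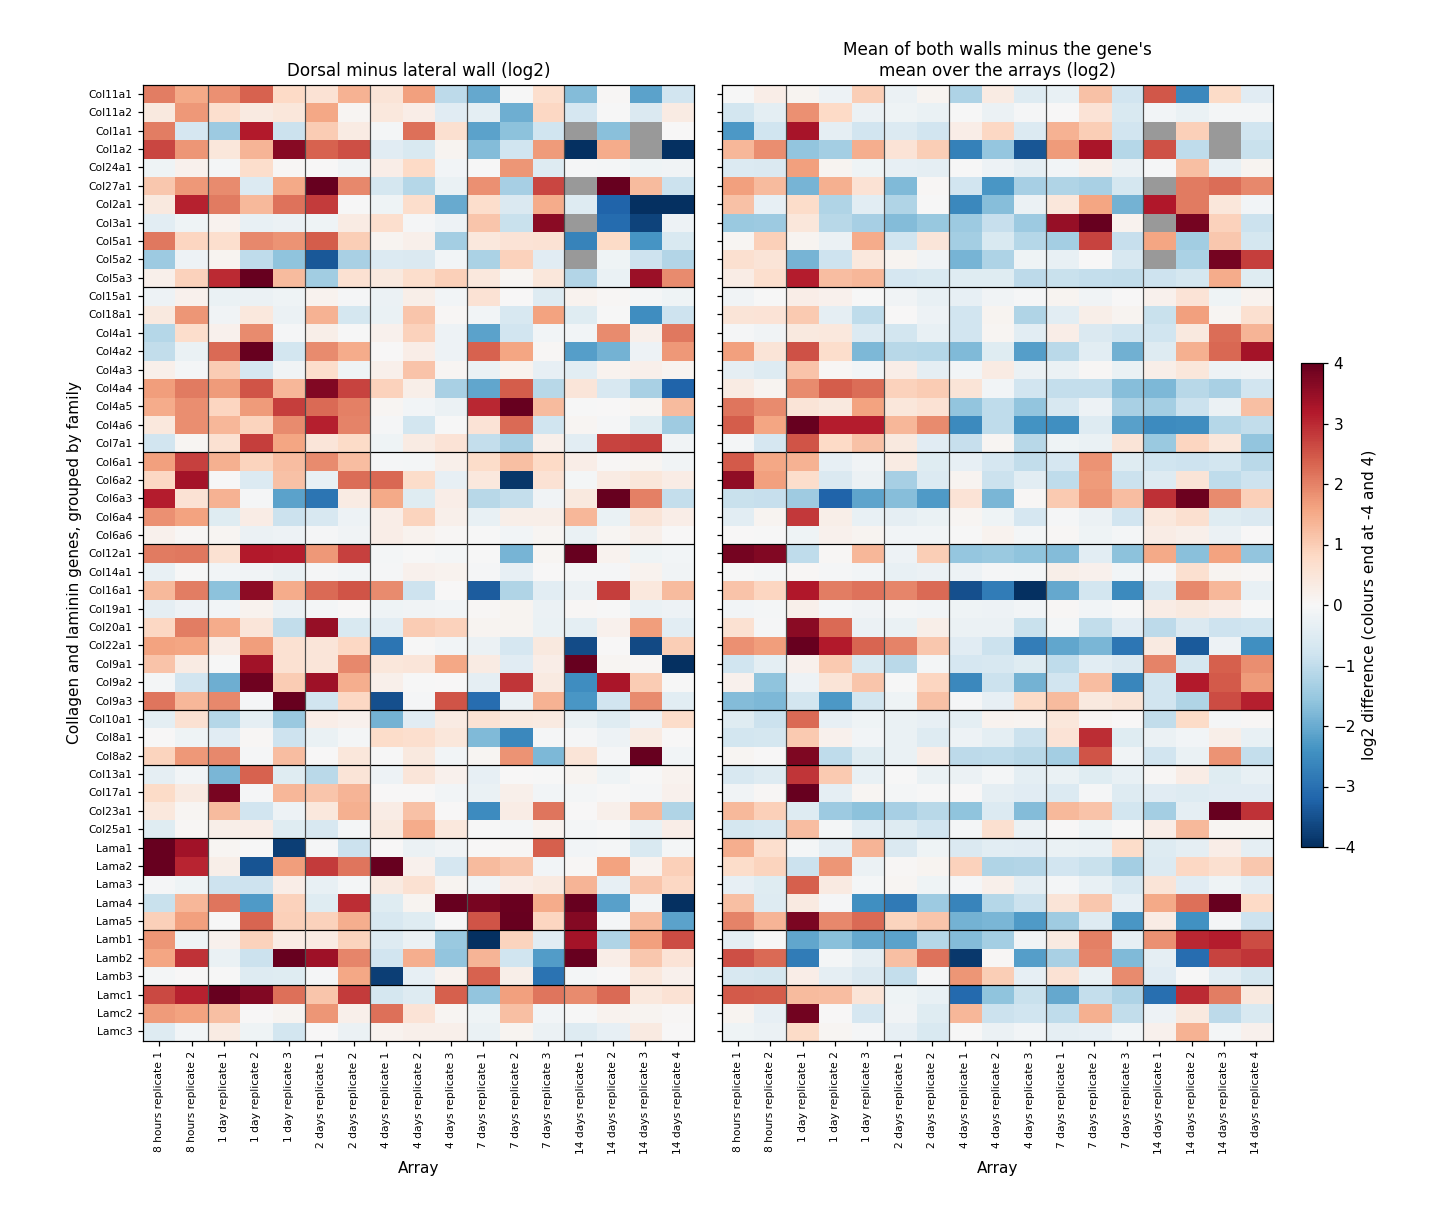
Heat maps of 52 collagen and laminin chains (vertical axis, by family) over the 17 arrays (horizontal axis, by time point). The first panel shows the log2 wall difference, dorsal minus lateral, and the second the mean log2 level of both walls minus the gene's mean over arrays; grey cells have no value. At 8 hours 36 of 52 chains were above 0 in the wall difference, at 7 days 25.

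Which chains differed between the walls was asked first over all time points, as the mean of the 6 time-point differences. Col6a1, Col4a5 and Lamc1 were higher in the cells of dorsal origin, and no chain was higher in those of lateral origin. Col6a1, the alpha 1 chain of collagen VI, was 1.99-fold higher; Col4a5, a collagen IV chain, 2.72-fold; and Lamc1, the gamma 1 chain present in most laminins, 3.52-fold. These 3 of 52 chains passed limma's test at an adjusted p under 0.05, where 2.47% of all genes did (1.35% higher and 1.12% lower). At an unadjusted p under 0.05, 18 chains differed, and 16.7% of all genes. Without the 2 arrays that stood apart 4 chains were called (5.51% of all genes), these 3 and Col5a2, a fibrillar chain, lower in the dorsal cells; Col5a2 was also called lower with no filter and with the mean over probes.

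The other chains lay mostly on the same side. In 42 of 52 chains the mean wall difference was above 0, against 52.8% of all genes, and its median was 0.42 on the log2 scale against 0.02 for all genes. By family the median was 0.73 for the 11 laminin chains, of which 9 were above 0, and 0.33 for the 41 collagen chains, of which 33 were above 0. It was 0.45 for 9 basement membrane collagens, 0.29 for 11 fibrillar, 0.66 for 9 fibril-associated, 0.33 for 5 beaded filament and 0.17 for 4 transmembrane collagens, and below 0 only in the family of 3 short-chain collagens, at -0.16. The chains ranged from -0.90 in Col5a2, named after its value was seen, to 1.82 in Lamc1. With each array's log ratios centred on their median in place of loess, 31 of 52 chains were above 0, the median of all genes moved to -0.23, and 7 chains were called higher and 3 lower. That setting called 23.7% of all genes, and 25.3% of its calls were higher, against 54.7% of those with loess.

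Col6a1 gave the smallest adjusted p of the 3. Its levels in the dorsal cells were 10.38 and 10.04 after 8 hours, 9.23, 7.22 and 7.60 after 1 day, 8.40 and 7.26 after 2 days, 6.77, 6.41 and 6.23 after 4 days, 6.81, 9.50 and 7.05 after 7 days and 6.45, 6.34, 6.41 and 5.99 after 14 days. In the lateral cells they were 8.74 and 7.32, 7.82, 6.33 and 6.37, 6.50 and 6.02, 6.81, 6.50 and 6.01, 6.08, 8.31 and 6.25 and 6.17, 6.27, 6.33 and 6.12 at the same times. On 14 of 17 arrays the dorsal cells had more; the walls did not overlap at 8 hours or 2 days, and at 4 and 14 days 1 lateral array at 4 days was the only one well above background. The mean difference was 0.99 ± 0.10 (SE, 17 arrays; limma, adjusted p = 0.00121). With the scanner software's own processed signals it was 1.97. Within the slides it was 1.34 and 1.18, then 0.86 and 0.78, and 0.07 on the slide that held the 14 days arrays.

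Col4a5 was also higher in the dorsal cells, at 7 days as well as at the early times, though it was called at no single time as reported. The dorsal levels were 11.03 and 10.94 after 8 hours, 9.07, 9.38 and 11.12 after 1 day, 9.73 and 9.71 after 2 days, 6.59, 7.08 and 6.42 after 4 days, 8.996, 10.004 and 7.45 after 7 days and 6.78, 7.26, 7.95 and 9.95 after 14 days. The lateral levels were 9.54 and 9.08, 8.22, 7.69 and 8.37, 7.46 and 7.69, 6.52, 7.18 and 6.66, 5.98, 5.85 and 6.20 and 6.79, 7.25, 7.86 and 8.69. The walls did not overlap at 8 hours, 1 day, 2 days or 7 days, and overlapped at 4 and 14 days. The mean difference was 1.44 ± 0.20 (SE; limma, adjusted p = 0.00406), dorsal higher on 14 of 17 arrays, and the means within slides lay between 0.34 and 2.03.

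Lamc1 had the largest mean difference of all chains. Its dorsal levels were 14.50 and 14.68 after 8 hours, 14.53, 13.80 and 12.33 after 1 day, 11.11 and 11.83 after 2 days, 7.25, 8.84 and 11.001 after 4 days, 7.86, 10.58 and 10.54 after 7 days and 8.65, 14.82, 12.96 and 11.39 after 14 days, and the lateral levels 11.85 and 11.61, 9.40, 10.11 and 10.11, 9.99 and 9.03, 7.96, 9.36 and 8.61, 9.45, 8.95 and 8.41 and 6.76, 12.55, 12.55 and 10.82. Through 2 days no lateral array reached the lowest dorsal one of its time, while at 4, 7 and 14 days the walls overlapped. The mean difference was 1.82 ± 0.34 (SE; limma, adjusted p = 0.0159), dorsal higher on 14 of 17 arrays. It was -0.39 on the slide with replicate 1 of 2, 4 and 7 days and 1.28 to 3.68 on the others. The call was lost with the processed signals (adjusted p = 0.0562) and without either 8 hours array or replicate 2 at 2 days (highest adjusted p 0.0525).

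Lama2, the alpha 2 chain of muscle and nerve laminin, did not pass. Its mean difference was 1.43 ± 0.44 (SE; limma, adjusted p = 0.114). At 8 hours its levels were 11.17 and 10.80 in the dorsal and 7.07 and 7.75 in the lateral cells, but at 1 day replicate 2 had 8.42 against 11.88, and the dorsal levels at 4 days were 11.99, 7.27 and 6.86. The 2 other probes of Lama2 gave mean differences of -0.03 and 0.47.

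**Figure D2:**
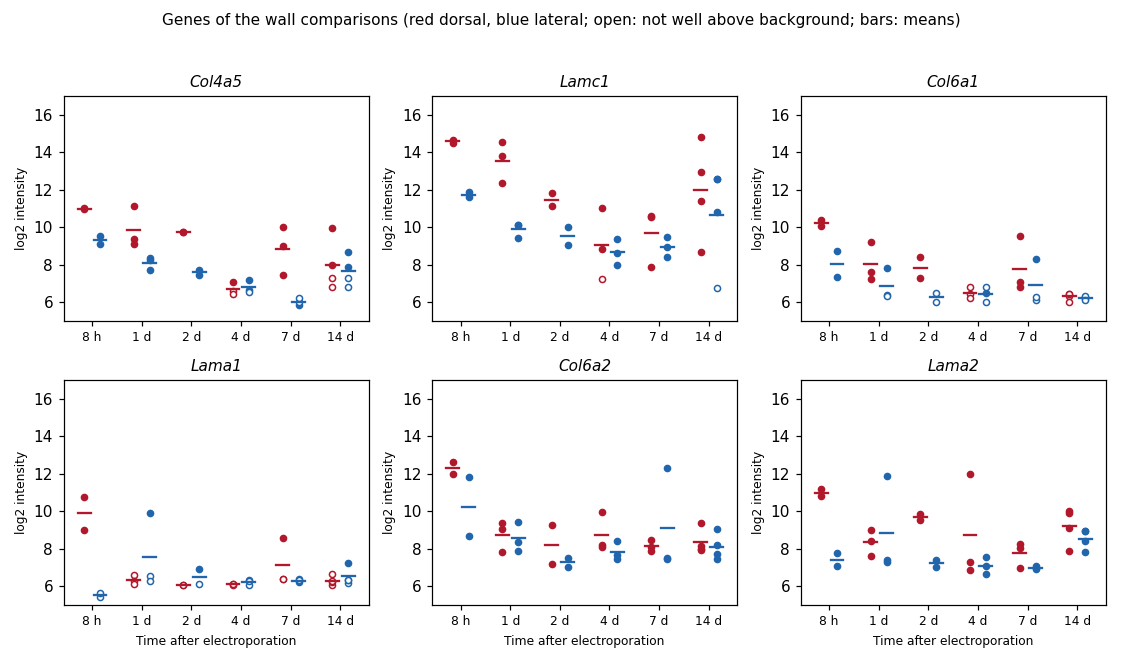
Log2 level (vertical axis) of Col4a5, Lamc1, Col6a1, Lama1, Col6a2 and Lama2 in each array, by time after electroporation (horizontal axis) and wall (colour). Open points were not well above background and bars are group means. Lamc1 at 8 hours had 14.50 and 14.68 in the dorsal against 11.85 and 11.61 in the lateral cells.

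Other cell markers differed between the walls beside these chains. Of 12 astrocyte and radial glia markers 4 were called higher in the dorsal cells (Aldoc by 1.66, Fabp7 by 1.63, Slc1a3 by 1.24 and Gfap by 1.13 on the log2 scale), with a list median of 1.18. Of 10 neuroblast markers 3 were called lower (Dlx2 by -1.98, Dlx1 by -1.90 and Sox11 by -0.75). Of 9 oligodendrocyte lineage markers only Sox10 was called, higher by 1.67, and of 8 choroid plexus markers only Kl, lower by -0.30. The mean of those 8 was higher in the dorsal cells on some arrays (12.17 against 7.89 in replicate 2 at 7 days). On others it was lower (7.53 against 8.77 in replicate 4 at 14 days). The erythroid gene Hbb-bt was higher by 3.70, and the mean of the 7 erythroid markers at 8 hours was 11.80 to 12.13 in the dorsal against 8.95 to 9.32 in the lateral cells. No ependymal marker was called, but the mean of that list at 8 hours was 13.55 and 13.43 in the dorsal against 11.73 and 12.35 in the lateral cells. It was higher in the dorsal cells on every array except replicates 2 and 3 at 4 days and replicate 2 at 14 days. Of the 14 endothelial, 12 mural and 14 fibroblast and meningeal markers 0 were called by limma, with list medians of 0.13, 0.13 and 0.09. Their part in the chains' wall differences was not tested.

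At single time points, the chains that passed were all higher in the dorsal cells and all before 4 days. At 8 hours Col6a1 and Lama1 differed, 2 of 52 chains where 0.37% of all genes did (0.267% higher, 0.103% lower). At 1 day Col6a1 and Lamc1 did, 2 chains against 1.16% (0.723% higher, 0.435% lower), and at 2 days Col6a1 alone, 1 chain against 0.177% (0.148% higher, 0.0288% lower). Without the 2 arrays that stood apart the counts were 1, 0 and 0 (0.390%, 2.80% and 0.263% of all genes). Lama1 is the alpha chain of the laminin of early embryonic basement membranes.

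At 8 hours Lama1 stood at 10.78 and 8.99 in the dorsal cells and at 5.40 and 5.63 in the lateral cells, where neither array was well above background. The fitted difference was 4.37 ± 0.81 (limma, adjusted p = 0.0412), and set against the lowest measurable signal the dorsal cells had at least 15.6-fold more. The pattern was not kept at 1 day, when the one array well above background was lateral replicate 3 at 9.88 and the dorsal arrays were at 6.60, 6.26 and 6.13. Leaving out 1 array at a time kept this call in 4 of 17 fits, with a highest adjusted p of 0.764; it was lost without either 8 hours array and without 11 of the 12 arrays from 2 days on.

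Col6a1 was 4.54-fold higher in the dorsal cells at 8 hours (2.18 ± 0.27, limma, adjusted p = 0.00336) and 2.26-fold higher at 1 day (1.18 ± 0.22, adjusted p = 0.0268). At 2 days no lateral array was well above background, and the dorsal cells had at least 2.96-fold more (1.57 ± 0.27, adjusted p = 0.0423). With the processed signals the 8 hours value was 2.35 and the 1 day value 3.02, neither called (adjusted p = 0.437 and 0.0575), and the 2 days call was kept in 5 of 17 fits without 1 array. Lamc1 at 1 day was 12.8-fold higher (3.68 ± 0.78, limma, adjusted p = 0.0434). That call too was kept in 5 of 17 such fits, and without replicate 1 at 1 day no chain was called at that time.

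At 4, 7 and 14 days limma called 0 of 52 chains, against 0%, 0.0247% and 0.0247% of all genes (at 14 days 0.00412% higher and 0.0206% lower); 2, 4 and 9 chains had an unadjusted p under 0.05 (5.46%, 4.98% and 10.8% of all genes). The number of chains above 0 went from 36 at 8 hours, 37 at 1 day and 38 at 2 days to 32 at 4 days, 25 at 7 days and 29 at 14 days, with medians of 0.93, 0.45, 0.72, 0.12, -0.02 and 0.01. Among all genes the share above 0 lay between 47.3% and 52.8% at these times. All 9 basement membrane collagens were above 0 at 2 days, with a median of 0.63. Of the 11 fibrillar collagens 8 or 9 were above 0 through 2 days and 2 were at 14 days, with a median of -0.83; with median centring 4 chains were called lower at 14 days (6.19% of all genes were called), but the median of all genes then moved to -0.43.

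Whether the wall difference itself changed over the 6 times was tested with limma's F test, which called 0 of 52 chains and 0.0823% of all genes. At an unadjusted p under 0.05, 10 chains and 8.15% of all genes passed. The median range of the time-point differences was 2.40 over the chains and 1.55 over all genes. Col6a1 came nearest, at an adjusted p of 0.0757. The calls at early and not at late times are thus not shown to differ from each other.

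Over time, the mean of both walls changed in 11 of 52 chains. Col4a4, Col4a6, Lama5, Col22a1, Col16a1 and Col5a3 were highest at 1 day; Col4a5 and Col12a1 peaked at 8 hours, and Lamb1, Col6a3 and Col27a1 at 14 days. No called chain peaked at 2, 4 or 7 days, against 5.98%, 19.1% and 11.3% of all called genes. At 4 days 6 of the 11 were lowest, and 29.7% of all called genes. The test was limma's F test over the 6 times, adjusted p under 0.05, which 8.05% of all genes passed; 20 chains and 21.9% of all genes had an unadjusted p under 0.05. The median range of time-point means was 2.20 over the chains and 1.40 over all genes. Without the 2 arrays that stood apart 13 chains were called, 10 of them among the 11, with 13.8% of all genes. By family, 3 of 9 basement membrane collagens, 3 of 9 fibril-associated, 2 of 11 fibrillar and 1 of 5 beaded filament collagens changed, with 2 of 11 laminin chains and 0 of 3 short-chain and 0 of 4 transmembrane collagens.

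Over all 52 chains, called or not, the highest mean fell at 8 hours in 11, at 1 day in 20, at 4 days in 1, at 7 days in 2, at 14 days in 18 and at 2 days in 0; over all genes the shares were 15.4%, 30.6%, 15.7%, 9.90%, 19.0% and 9.39%. The lowest mean fell at 4 days in 21 chains, against 13.5% of all genes. Markers moved over the same times: the mean of 8 ependymal markers was 11.73 to 13.55 at 8 hours and 7.58 to 8.81 at 4 days, with 6 of 8 called, and 9 of 12 astrocyte and radial glia markers and 9 of 10 neuroblast markers were called. Of the 12 mural cell markers Vtn and Pdgfrb were called, of the 14 fibroblast and meningeal markers Postn, and of the 14 endothelial markers 0 (limma). Microglia markers were called too, among them P2ry12, Csf1r, Cx3cr1 and C1qa. The part of these cells in the chains' changes was not tested.

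**Figure D3:**
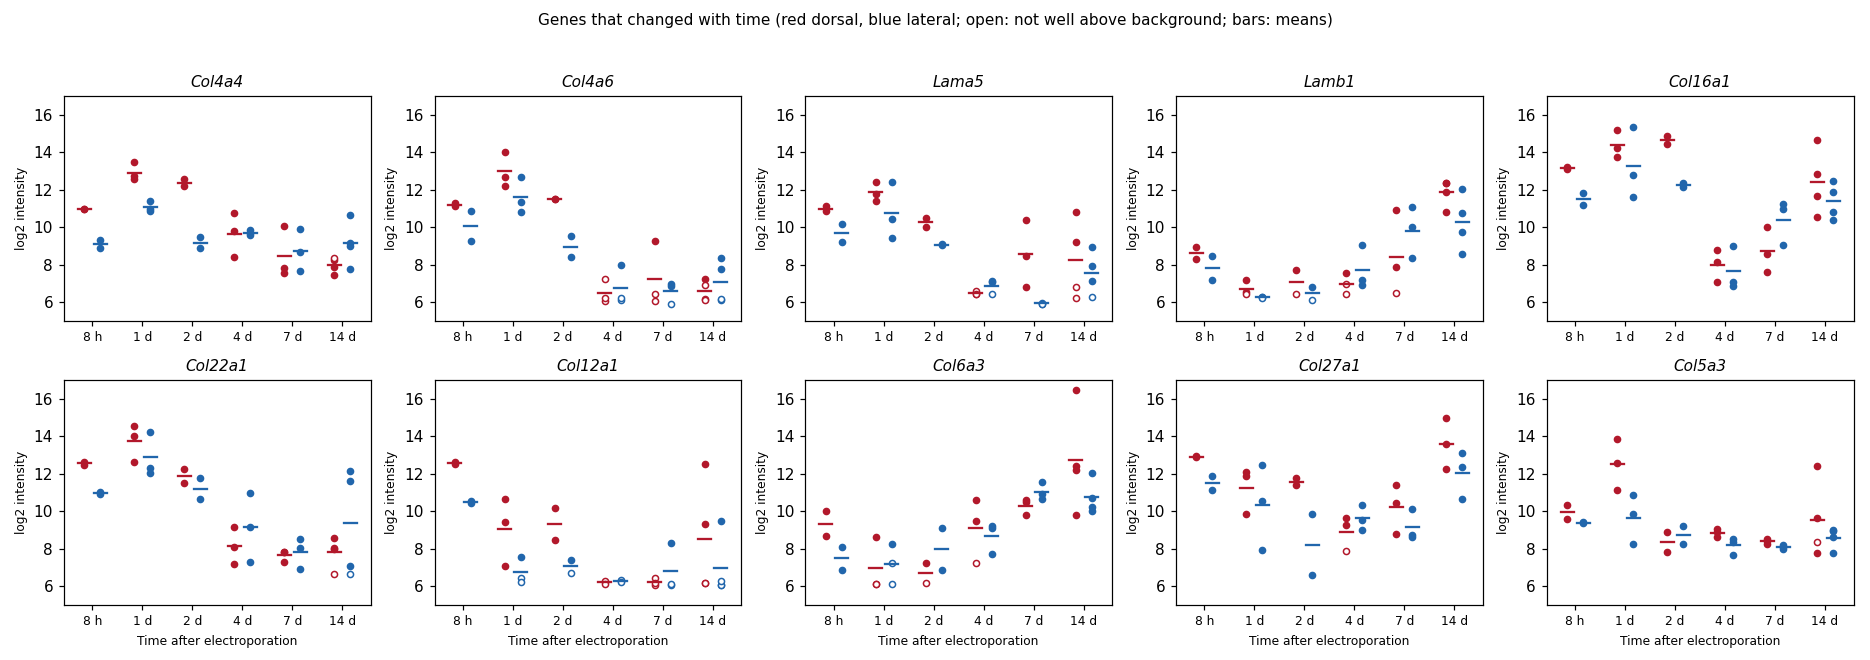
Log2 level (vertical axis) of 10 chains that changed with time, in each array by time after electroporation (horizontal axis) and wall (colour). Open points were not well above background and bars are group means. Col4a6, Lama5 and Col16a1 were lowest at 4 days; Lamb1 and Col6a3 were highest at 14 days.

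The collagen IV chains Col4a4, Col4a5 and Col4a6 belong to the less widespread collagen IV networks, as in the kidney glomerulus and under smooth muscle. The mean of both walls for Col4a6 was 11.06 and 10.19 after 8 hours, 13.34, 11.77 and 11.75 after 1 day, 9.94 and 10.52 after 2 days, 6.07, 7.61 and 6.22 after 4 days, 6.17, 8.11 and 6.46 after 7 days and 6.12, 6.14, 7.49 and 7.64 after 14 days. All arrays through 2 days lay above all later ones. The time-point means ran from 12.29 ± 0.91 (SD, n = 3) at 1 day to 6.63 ± 0.85 (SD, n = 3) at 4 days, a range of 5.65 (limma F test, adjusted p = 0.000396). At 4 days, only the lateral channel of replicate 2 was well above background, so the range is set mostly against background, at least 46.8-fold.

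For Col4a4 the values were 10.13 and 9.91 after 8 hours, 11.69, 12.21 and 12.05 after 1 day, 10.71 and 10.82 after 2 days, 10.30, 9.69 and 9.04 after 4 days, 8.84, 8.86 and 8.10 after 7 days and 8.01, 8.67, 8.50 and 9.03 after 14 days. The 3 arrays at 1 day were the highest, and the 7 and 14 days arrays overlapped. Its range was 3.43 (limma F test, adjusted p = 0.000363), the smallest adjusted p of the chains. Col4a5 ran from 10.15 ± 0.20 (SD, n = 2) at 8 hours to 6.74 ± 0.33 (SD, n = 3) at 4 days, 10.6-fold (adjusted p = 0.0209), with 3 of 6 channels well above background at 4 days; this call was kept in 13 of 17 fits without 1 array and lost with the processed signals (0.0661).

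Lama5 and Lamb1, both basement membrane laminin chains, were highest at 1 day and at 14 days, and Lamb1 was lowest when Lama5 was highest. Lama5, the widespread alpha 5 chain, had means of both walls of 10.65 and 10.01 after 8 hours, 12.42, 10.58 and 10.93 after 1 day, 9.55 and 9.77 after 2 days, 6.77, 6.83 and 6.40 after 4 days, 7.22, 8.13 and 6.34 after 7 days and 8.95, 6.24, 8.57 and 7.84 after 14 days. All arrays through 2 days lay above all later ones, the range was 4.64, and the adjusted p was 0.00294 (limma F test). At 4 days 2 of 6 channels, both lateral, were well above background, so the fold was at least 24.6. Lamb1, the beta 1 chain, had 8.06 and 8.38 after 8 hours, 6.33, 6.73 and 6.38 after 1 day, 6.28 and 7.27 after 2 days, 6.67, 7.06 and 8.28 after 4 days, 8.78, 10.44 and 8.10 after 7 days and 10.23, 11.43, 11.56 and 11.03 after 14 days. Its 14 days arrays overlapped only with replicate 2 at 7 days and exceeded all others. The range was 4.59, at least 23.6-fold (limma F test, adjusted p = 0.00113), from 1 day, where 0 of 3 lateral arrays were well above background, to 14 days, which shared no slide with another time.

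Of the fibril-associated collagens, Col16a1 had the largest range of all chains. Its means of both walls were 12.47 and 12.20 after 8 hours, 14.54, 13.38 and 13.50 after 1 day, 13.30 and 13.60 after 2 days, 7.81, 8.55 and 7.06 after 4 days, 9.28, 10.62 and 8.80 after 7 days and 10.69, 13.27, 12.65 and 11.03 after 14 days. All arrays through 2 days and those at 14 days were higher than every 4 days array, and both channels of all 17 arrays were well above background. The range was 5.99, 63.8-fold (limma F test, adjusted p = 0.000728). On the slides that held both times, it was 13.30 at 2 days and 7.81 at 4 days on one, and 13.60 and 8.55 on the other.

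Col22a1, a collagen of tissue junctions such as that of muscle and tendon, had 11.83 and 11.68 after 8 hours, 14.40, 13.16 and 12.33 after 1 day, 11.99 and 11.08 after 2 days, 9.53, 9.15 and 7.22 after 4 days, 7.93, 8.18 and 7.10 after 7 days and 10.37, 6.63, 9.79 and 7.56 after 14 days. Arrays through 2 days exceeded all later ones; at 14 days replicate 2 was the lowest of all. The range was 5.56, 47.3-fold (limma F test, adjusted p = 0.00636). Col12a1, which binds collagen I fibrils, had 11.60 and 11.48 after 8 hours and 6.22, 6.29 and 6.16 after 4 days, where no channel was well above background, and 9.28, 6.10, 9.39 and 6.20 after 14 days, where the arrays split. Its range of 5.32 (at least 36.1-fold; limma F test, adjusted p = 0.0313) was called in 10 of 17 fits without 1 array, and the processed signals gave 9.05 with an adjusted p of 0.0508.

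Of the remaining called chains, Col6a3, the large alpha 3 chain of collagen VI, was higher late. Its means of both walls were 8.43 and 8.38 after 8 hours, 7.90, 6.11 and 7.19 after 1 day, 7.61 and 7.04 after 2 days, 9.85, 7.49 and 9.36 after 4 days, 10.34, 11.08 and 10.56 after 7 days and 12.24, 13.23, 11.21 and 10.26 after 14 days. Every array at 7 and 14 days lay above every earlier one. The range was 4.67, 25.4-fold (limma F test, adjusted p = 0.00408), from 1 day. There 2 of 6 channels were well above background, so the range is set mostly against background. Within the slides shared by these times it was 7.61, 9.85 and 10.34 at 2, 4 and 7 days on one and 7.04, 7.49 and 11.08 on the other.

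The fibrillar chains Col27a1, of cartilage fibrils, and Col5a3, of collagen V, also changed. Col27a1 ran from 9.26 ± 0.79 (SD, n = 3) at 4 days to 12.82 ± 0.16 (SD, n = 3) at 14 days, where replicate 1 had no usable spot and was left out; the range was 3.55, 11.7-fold (limma F test, adjusted p = 0.024), kept in 11 of 17 fits without 1 array. Col5a3 ran from 8.24 ± 0.05 (SD, n = 3) at 7 days to 11.09 ± 1.08 (SD, n = 3) at 1 day, 7.22-fold (adjusted p = 0.0428), kept in 3 of 17. With the mean over a gene's probes, the ranges were 1.66 and 1.60 and neither was called.

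The calls of Col4a4, Col4a6, Lama5, Col16a1, Col22a1 and Col6a3 were kept in all 17 fits without 1 array and in the 11 other settings tried for them. Each probe on its own, 1 of these settings, used the same brightest probe here and so nearly repeats the reported fit. Slide as a random block, another, called 50.6% of all genes, so passing it adds little. Over the 4 times that share slides (8 hours, 2, 4 and 7 days), 14 chains were called without a slide term (17.8% of all genes), 10 of them among the 11, and 15 with slide as a block (16.1%), 9 of them among the 11. Lamb1 was called in neither of these; 14 days is absent from them.

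The last time was also set against the first within each wall, where the dye is the same. In the dorsal cells 5 chains fell from 8 hours to 14 days and 0 rose: Col22a1, Lama1, Col4a6, Col6a2 and Col6a1. In the lateral cells 1 chain rose, Col6a3. Of all genes 1.58% were called in the dorsal cells (0.317% higher, 1.26% lower) and 2.33% in the lateral cells (1.15% higher, 1.19% lower); an unadjusted p under 0.05 was found in 12 chains in each wall (13.1% and 12.1% of all genes). Without the 2 arrays that stood apart 5 chains were called in the dorsal and 3 in the lateral cells (2.40% and 4.78% of all genes). The median change over the chains was 0.13 in the dorsal cells, against 0.14 over all genes, and 0.53 in the lateral cells, against 0.24.

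In the dorsal cells Col22a1 went from 12.64 and 12.46 to 8.57, 6.63, 7.98 and 8.05, a change of -4.74 ± 0.65 (26.8-fold; limma, adjusted p = 0.00192). Col4a6 went from 11.26 and 11.11 to 6.15, 6.11, 7.24 and 6.93, 23.9-fold lower (adjusted p = 0.00875). In both the groups were far apart, and 1 of the 4 late arrays of Col4a6 was well above background. Col6a2, the alpha 2 chain of collagen VI, went from 12.64 and 11.96 to 8.12, 9.36, 7.91 and 7.997, 15.5-fold lower (limma, adjusted p = 0.0104), though the call was lost with the processed signals (0.0826).

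Lama1 and Col6a1 ended below measurement. Lama1 had 10.78 and 8.99 after 8 hours and 6.07, 6.24, 6.62 and 6.24 after 14 days, at least 10.6-fold lower (limma, adjusted p = 0.00718), and Col6a1 had 10.38 and 10.04 and 6.45, 6.34, 6.41 and 5.99, at least 13.6-fold lower (adjusted p = 0.0122); no dorsal array at 14 days was well above background for either. In the lateral cells Col6a3 went from 6.86 and 8.09 to 12.04, 9.9999, 10.20 and 10.73, with no overlap, 9.62-fold higher (limma, 3.27 ± 0.78, adjusted p = 0.0455). Its dorsal change was 3.39 ± 1.42 and did not pass (adjusted p = 0.335), with dorsal levels at 14 days of 12.43, 16.45, 12.22 and 9.79. Without replicate 1 at 8 hours 0 chains passed in the dorsal and 0 in the lateral cells, and without replicate 2 of that time the counts were 2 and 0. The lateral call of Col6a3 was kept in 6 of 17 fits without 1 array, with losses also without arrays of 4, 7 and 14 days, and in 4 of the 9 other settings (highest adjusted p without 1 array 0.465).

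The probes of a chain did not all show the same change. For 27 chains at least 2 kept probes lay on the same RefSeq transcript, and in 21 of them (77.8%) the probe nearest the 3′ end had the larger range over time. Over all 6108 transcripts with such probes the share was 51.4%. The median range was 1.75 for the 3′ probes of the chains and 1.03 for their 5′ probes, and 1.62 and 1.60 over all transcripts. These figures describe the chains and are no test. Some probes were well above background on few arrays, at the 5′ end as in Col23a1 (2 dorsal and 3 lateral arrays) and at the 3′ end as in Col24a1 (3 and 3). Some probes of a pair also lay close together, as in Col2a1 at positions 4621 and 4601.

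Col16a1 shows the larger range at the 3′ end most. Its probe at position 5029 of the transcript had a range of 5.99 and its probe at position 1124 one of 0.63, while both were well above background on all 17 arrays. Col4a6 had ranges of 5.65, 1.56 and 1.61 at positions 6544, 5718 and 5102, and Col5a3 2.85 and 0.50 at 5928 and 2735, the second being the glycine-repeat probe printed above. The probes of Col6a3, Col22a1 and Col4a4 are placed on different transcript records and were ordered by their mm9 coordinates: the 3′ probe had 4.67 and the 5′ probe 0.76 in Col6a3, 5.56 and 1.95 in Col22a1 and 3.43 and 1.78 in Col4a4. In Col12a1 both probes were called when each probe was tested on its own, with ranges of 5.32 and 2.30 at positions 11127 and 9042. Of the chains called over time that had more than 1 kept probe, Col12a1 was the only one with a second probe called; Col4a5, Lama5, Lamb1, Lamc1 and Col6a1 had a single kept probe.

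**Figure D4:**
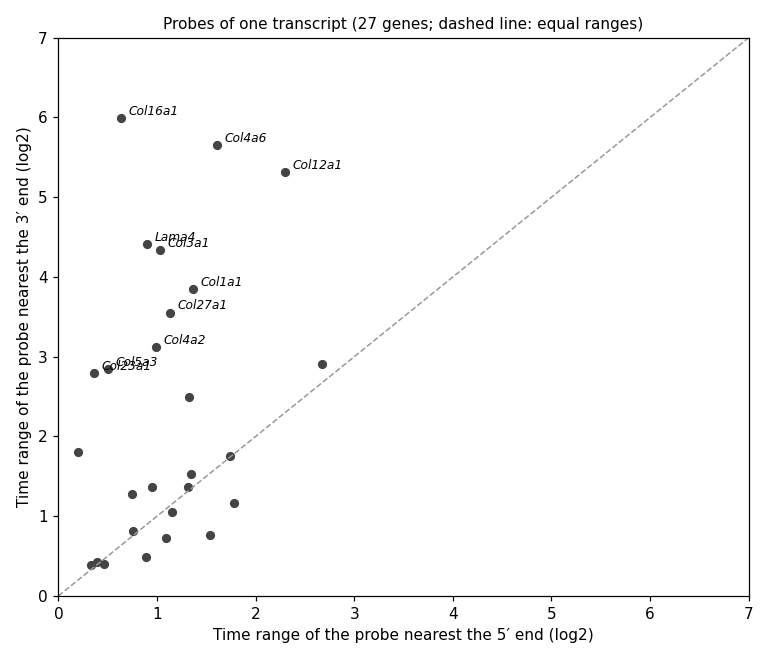
Range over time (log2, highest minus lowest time-point mean of both walls) of the kept probe nearest the 3′ end (vertical axis) against that nearest the 5′ end (horizontal axis), 1 point for each of 27 chains, with the line of equal ranges. In 21 chains the point lies above the line.

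Other genes of the matrix were counted from lists of their roles. Over all genes, limma called 2.47% for the mean wall difference, 1.16% for that at 1 day and 8.05% over time. The mean wall difference was above 0 in 52.8% of all genes. Of 15 other basement membrane proteins, Sparc, a collagen-binding protein, was higher in the dorsal cells by 0.93 ± 0.17 (SE; limma, adjusted p = 0.0182), Fbln2, a fibulin of basement membranes, by 1.24 ± 0.27 (0.0314) and Agrn, the proteoglycan agrin, by 0.69 ± 0.15 (0.0382). The list's median was 0.64, with 13 of 15 above 0. Over time Sparc, Nid2 and Nid1 changed, with ranges of 3.75, 4.74 and 5.21; the nidogens Nid1 and Nid2 link laminin to collagen IV. At 1 day Agrn and Sparc differed, by 1.74 and 1.89.

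Of 30 genes of collagen biosynthesis and assembly, limma called 0 for the mean wall difference (6 unadjusted), with 24 above 0 and a median of 0.25. Of all genes 16.7% had an unadjusted p under 0.05 there (limma) and 52.8% were above 0. Over time 3 changed: Loxl1, a lysyl oxidase that crosslinks, by a range of 5.08, Serpinh1, the collagen chaperone, by 3.02, and Colgalt2, a collagen galactosyltransferase, by 2.00. Of 18 receptors for collagens and laminins limma called 0 for the mean wall difference (1 unadjusted), and 1 over time, Itga11, a collagen-binding integrin, which fell in the dorsal cells between 8 hours and 14 days by 2.56. Of 19 proteases and inhibitors 0 were called for the mean wall difference (3 unadjusted) and 5 over time. For each of these lists the shares of all genes called were 2.47% for the mean wall difference and 8.05% over time. From 8 hours to 14 days 1.58% of all genes were called in the dorsal and 2.33% in the lateral cells. From 8 hours to 14 days the inhibitor Timp1 fell by 5.08 in the dorsal cells and Timp4 rose by 2.42, and the collagenase Mmp8 fell by 3.29 in the dorsal and by 3.34 in the lateral cells, where Mmp13 fell by 3.24.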

How the data were processed

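Gene expression was measured on 17 Agilent 2-colour arrays. The deposited scanner files hold each spot's intensity in both channels, its background and its flags, written by Agilent Feature Extraction, per the file headers. Its version was 10.5.1.1 on all 1 day and 2 days arrays and 10.7.3.1 on all 8 hours and 14 days arrays. At 4 and 7 days replicates 1 and 2 had 10.5.1.1 and replicate 3 had 10.7.3.1. Between 1 or 2 days and 8 hours or 14 days, version and time thus cannot be told apart. Per the file headers, the scanner's LogRatio column holds log10 of red divided by green, and it was used to find the scale of the authors' value table. Set against it, the values the authors deposited there are log2 ratios of green over red, centred near 0; how they were normalized is not stated in the sources at hand. Each file's array was placed in its group by the labels.

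Intensities were background-corrected by normexp (offset 50) and normalized by loess within arrays and Aquantile between them (limma 3.58.1, R 4.3.3). Control spots and outlier spots were left out, spots of a probe were averaged, and a gene's brightest probe stood for it. Gene names were updated through RefSeq accessions (27048 of 41174 probes) or symbols (6723); 7403 kept the file's name. Kept probes were well above background on at least 2 arrays. 1 limma fit with a mean per time point held all 17 arrays, for the log ratio, the mean of both channels and each channel; differences are given with the SE of the fit, levels with the SD. P-values were adjusted by Benjamini-Hochberg over all genes tested and called under 0.05. These were 24340 genes for the wall differences at single times from 8 hours to 7 days, and 24296 for the other comparisons. "At least" folds set the brighter group against the lowest signal well above background on each dim array. The number of arrays limits the precision.

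Named are the chains called in any comparison and the 4 with the largest mean wall difference and the 4 with the largest range over time; of other matrix lists, the called genes, at most 4 per list. Members, lists and rules were chosen with earlier results of these data known. Tested on simulated data of 22657 genes, 200 of them changed, the fit found 42.5%, 82% and 99.5% of mean wall differences of 1, 2 and 4 (log2), and 0%, 31% and 77% of such changes with time. Alternatives were the processed signals, median centring, the value table, the filter, the mean over probes, a replicate block, slide as a block, and fits without 1 or 2 arrays; slide as a block over 4 time points and each probe on its own were chosen after seeing the data. Sequences come from the array files and RefSeq. Figures were drawn with matplotlib 3.10.9.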

Additional observations from a re-analysis of the deposited data

Results flagged for a closer look

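In the 14 days groups, 1 array lay far from the other 3 in 3 of 30 groups examined (a chain in 1 wall); chance alone marks about 5% of groups in this way. Lama1 in the lateral cells was at 7.22 in replicate 3, the only one well above background, with the next array at 6.33. Col6a2 in the dorsal cells was at 9.36 in replicate 2 with the next at 8.12. Col12a1 in the lateral cells was at 9.48 in replicate 3 with the next at 6.25.

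In 9 of the 16 named chains the wall difference had 1 sign on all arrays of some times and the opposite sign on all arrays of another. In groups of 2 to 4 arrays a shared sign is common by chance, and the share of all genes with such a pattern was not counted. The signs themselves were not tested, and limma's F test for a change of the wall difference with time called none of the 9; its adjusted p is given with the range of the time-point differences. Col4a6 (range 3.03, adjusted p = 0.408), Col22a1 (3.14, 0.749) and Col12a1 (2.91, 0.852) were above 0 at 8 hours, 1 day and 2 days and below 0 at 4 days. Col27a1 (range 4.06, adjusted p = 0.831) was above 0 at 8 hours and 2 days, Lama5 (3.00, 0.880) at 8 hours, 2 days and 7 days, and Lamb1 (2.99, 0.836) at 1 day and 2 days, each with all arrays below 0 at 4 days. Col16a1 (range 4.05, adjusted p = 0.717) was above 0 at 8 hours and 2 days and Col6a3 (3.27, 0.873) at 8 hours, both with all arrays below 0 at 7 days. Lama1 (range 5.60, adjusted p = 0.257) was above 0 at 8 hours and 7 days and below 0 at 2 days and 14 days.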

How the results depend on the processing

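Counts of the 52 chains called are given first as reported and then under other settings, with the share of all genes called in parentheses where the count rose. Of the values of single named chains 0 changed sign, but the ranges over time among them are never below 0 and could not. Of these values 588 kept their side of the threshold, 142 lost it and 4 gained it. For the mean wall difference (3 chains) the count was 10 with median centring (23.7%), 5 with no filter (2.87%), 6 with the mean over probes (2.55%) and 16 with slide as a random block (13.8%). At 8 hours (2) it was 0 with the processed signals, 0 with the value table, 1 with the stricter filter and 1 without both arrays that stood apart. At 1 day (2) it was 0 with the processed signals, 1 with median centring, 0 with the value table, 11 with slide as a random block (10.9%) and 0 without both arrays. At 2 days (1) it was 0 with median centring, the value table, the stricter filter or without both arrays. At 7 days (0) it was 1, Col4a5, with the processed signals (0.0205%) and with the value table (0.0123%). At 14 days (0) it was 4 with median centring (6.19%) and 8 with slide as a random block (10.1%). For the change of the wall difference (0) it was 1 with no filter (0.135%) and 3 with the slide block (2.52%), and for the change with time (11) 34 with it (50.6%). For 14 days against 8 hours it was 14 with the slide block (15.7%) in the dorsal cells (5), and in the lateral cells (1) 0 with the processed signals, 0 with no filter, 15 with the slide block (16.5%) and 3 without both arrays (4.78%). The consensus correlation within slides was below 0 in every fit, at -0.18 for the wall difference and -0.24 for the mean of both walls, and such a block narrows the errors of means by construction.

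With the replicate number as a block 0 chains were called for the mean wall difference, at 8 hours, at 1 day and at 2 days. Wall differences of that fit are values for replicate 1, not means over the replicates, so they are another quantity than those reported. The median of the mean wall difference over the chains was 0.22 there, against 0.42 as reported. The numbers did not pair the samples in the wall difference, where same-numbered arrays of different times correlated at -0.04 to 0.08. In the mean of both walls, arrays on different slides correlated at -0.136 to 0.233 with the same number and -0.304 to 0.29 with different numbers. On the same slide the highest values were 0.331 and 0.033.

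Leaving out 1 array at a time gave 2 to 5 chains for the mean wall difference (2 without either 8 hours array, 5 without replicate 2 at 1 day). It gave 1 to 2 at 8 hours, 0 to 3 at 1 day (0 without its replicate 1, 3 without replicate 1 at 14 days), 0 to 1 at 2 days, 0 at 4 days and 14 days and for the change of the wall difference, and 0 to 2 at 7 days (2 without its replicate 3). For the change with time it gave 7 to 13 (7 without either 8 hours array or replicate 3 at 4 days), for the dorsal cells 0 to 7 (0 without replicate 1 at 8 hours, 7 without replicate 2 at 7 days) and for the lateral cells 0 to 3 (3 without replicate 1 at 1 day). Signal over background limits what can be said of Lama1 and of Col6a1 after 2 days.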
